A study of Mus musculus with 12 samples.

Results

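Extracellular ATP and adenosine act on endothelium through a short chain of surface enzymes and receptors, and 10 genes of that chain were chosen for description in liver sinusoidal endothelial cells (LSECs) that lack the scavenger receptors stabilin-1, stabilin-2 or both. Of the 10 listed genes, 8 were paired with a row by the array's annotation, out of 24011 genes measured: Entpd1, Entpd2, Nt5e, Ada, P2rx4, P2ry1, P2ry2 and P2ry6. The other 2 listed genes, both adenosine receptors, are not analysed here. Entpd1 was put on the list because its values were higher in Stab1KO than in WT cells, so that comparison is described for it and its test is not read. Counts of calls below leave Entpd1 out where they say so. The other members were added for their function, with earlier results of these data known.

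The study measured expression on 12 Affymetrix arrays. LSECs were taken with CD146 magnetic beads from perfused livers of C57BL/6J mice aged 3 to 4 months, and RNA was extracted directly after isolation. The 4 groups had 3 arrays each: mice that lack both stabilins (DKO), mice that lack Stab1 (Stab1KO), mice that lack Stab2 (Stab2KO) and wild type mice (WT). Each array held the pooled cells of 3 mice, and the labels do not say how the alleles were made or whether the groups were littermates. Values are log2 expression, so a difference of 1 is a doubling. The median was taken from 1 array, DKO replicate 2, and was 5.11. A p is limma's, adjusted by the Benjamini-Hochberg method over all 24011 genes, and a gene was called when it was under 0.05.

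ATP leaves cells when they are stressed, sheared or damaged. NTPDase1 (CD39, the product of Entpd1) converts ATP and ADP to AMP at the cell surface, and CD73 (the product of Nt5e) converts AMP to adenosine. ATP and other nucleotides act on P2X channels and P2Y receptors, adenosine acts on its own receptors, and adenosine deaminase (Ada) ends that signal by turning adenosine into inosine. In vessels CD39 is known for removing the ADP that activates platelets, and P2 receptors on endothelium are known for triggering release of nitric oxide and prostacyclin.

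The labelled targets and cell type were present in the values. Stab1 lay between 4.98 and 5.45 in the 6 arrays labelled as lacking it and at 12.46 or above in the others, and Stab2 lay between 5.46 and 7.60 against 12.99 or above. The LSEC markers Clec4g, Fcgr2b and Lyve1 were at 12.39 or above in all 12 arrays. DKO replicate 3 stood apart: it correlated with the other arrays at 0.956 to 0.968, against at least 0.987 among the other 11. Its 10 neutrophil genes averaged 5.28 above their 12-array mean, and in no other array did they average more than 0.11 above it. Whether differences between pools reflect RNA per cell or the share of a cell type cannot be told apart in these bulk samples.

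The windows around the transcription starts of the 3 members on which the results turn are shown for reference, from RefSeq (GRCm38.p6). Each is 250 bases before to 50 after an annotated start, and 7 of the 8 members have such a window there. Entpd1 has 2 annotated starts 47.4 kb apart on chromosome 19, and the array value cannot tell which of them was used. P2rx4 and P2ry1 are the members that fell when both stabilins were missing. Capitals mark matches, on either strand, to any of 5 short motifs.
Entpd1 start 1, chr19:40612116-40612415, plus strand: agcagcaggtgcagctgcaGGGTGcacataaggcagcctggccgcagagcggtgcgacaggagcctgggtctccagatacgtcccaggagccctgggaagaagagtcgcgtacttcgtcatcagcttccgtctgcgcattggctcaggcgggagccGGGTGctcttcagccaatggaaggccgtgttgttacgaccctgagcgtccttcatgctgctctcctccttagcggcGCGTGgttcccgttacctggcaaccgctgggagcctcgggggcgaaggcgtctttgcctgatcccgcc
Entpd1 start 2, chr19:40659520-40659819, plus strand: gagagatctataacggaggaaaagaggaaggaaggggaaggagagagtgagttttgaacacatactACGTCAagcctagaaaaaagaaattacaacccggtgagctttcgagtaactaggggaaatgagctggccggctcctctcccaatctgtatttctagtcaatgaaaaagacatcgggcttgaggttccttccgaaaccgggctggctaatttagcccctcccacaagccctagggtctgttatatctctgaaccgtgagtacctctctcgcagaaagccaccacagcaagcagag
P2rx4, chr5:122707294-122707593, plus strand: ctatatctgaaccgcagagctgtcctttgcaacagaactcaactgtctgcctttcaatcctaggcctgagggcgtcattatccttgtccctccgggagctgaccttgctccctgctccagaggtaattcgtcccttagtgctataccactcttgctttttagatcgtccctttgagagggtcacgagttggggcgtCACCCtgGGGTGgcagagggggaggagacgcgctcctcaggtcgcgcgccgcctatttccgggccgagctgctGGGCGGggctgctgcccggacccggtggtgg
P2ry1, chr3:61002535-61002834, plus strand: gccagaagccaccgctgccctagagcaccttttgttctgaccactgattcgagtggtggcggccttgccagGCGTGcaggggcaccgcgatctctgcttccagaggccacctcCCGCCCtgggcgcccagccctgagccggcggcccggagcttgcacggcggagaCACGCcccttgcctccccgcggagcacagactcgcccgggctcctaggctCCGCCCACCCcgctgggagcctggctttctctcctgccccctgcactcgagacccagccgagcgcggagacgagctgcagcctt
The motifs were GGGCGG (the GC box of Sp1 factors), TGACGT (the core of the cAMP response element), GCGTG (the core bound by the aryl hydrocarbon receptor), CACCC (bound by Klf factors) and TGANTCA (the AP-1 site). Of all 32851 such windows in the RefSeq table, 35.7%, 7.51%, 32.4%, 57.5% and 7.81% hold a match to these motifs in that order. Start 1 of Entpd1 holds CACCC at 2 places and GCGTG at 1, and start 2 holds TGACGT at 1 place. The P2rx4 window holds CACCC at 2 places and GGGCGG at 1. The P2ry1 window holds GGGCGG and GCGTG at 2 places each and CACCC at 1, and one GGGCGG match shares 1 base with the CACCC match. No TGANTCA match lies in the 4 windows. A match is a stretch of letters and says nothing about binding in these cells.

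Entpd1 had its highest mean in DKO, the next in Stab1KO, then in Stab2KO, and its lowest in WT. It measured 11.75, 11.80 and 11.67 in DKO, 11.51, 11.69 and 11.42 in Stab1KO, and 11.24, 11.06 and 10.59 in Stab2KO, against 10.66, 9.97 and 10.02 in WT. Every DKO and every Stab1KO array lay above every Stab2KO and WT array. Neighbours in this order overlapped at both ends: the highest Stab1KO array lay above the lowest DKO array, and the highest WT array above the lowest Stab2KO array. No step between neighbours passed the test. The limma adjusted p was 0.68 for DKO against Stab1KO, 0.56 for Stab1KO against Stab2KO and 0.29 for Stab2KO against WT. The means were 11.74 ± 0.07 in DKO, 11.54 ± 0.14 in Stab1KO, 10.96 ± 0.33 in Stab2KO and 10.22 ± 0.38 in WT (SD, n = 3 pools each). The mean of Entpd1 over the 12 arrays was at percentile 98.0 of all genes.

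Against WT, Entpd1 was higher by 1.32 ± 0.20 (SE) in Stab1KO, a fold of 2.50, and by 1.52 ± 0.20 in DKO, a fold of 2.87. In Stab2KO it was higher by 0.74 ± 0.20. These 3 values share the WT arrays for which the gene was chosen and are a description. DKO against Stab2KO asks about the loss of Stab1 in arrays that the choice did not use. There Entpd1 was higher by 0.78 ± 0.20, with all 3 DKO arrays above all 3 Stab2KO arrays, and it did not pass the test (limma adjusted p = 0.056, exact permutation p = 0.1, two-sided, the smallest that 3 against 3 arrays allow). The 95% interval of that difference before adjustment ran from 0.35 to 1.22. It passed in 4 of 19 alternatives: with the replicate number as a block (adjusted p = 0.043), a filter on low signal (0.044), array weights (0.044) and without WT replicate 1 (0.037). It did not pass in the other 15. Among these were the trend and robust options (0.050), renormalization (0.054), every row tested (0.057) and only the 6 arrays compared (0.14). Across the 12 settings that left out 1 array, the difference was between 0.60 and 0.92 and the adjusted p between 0.037 and 0.14. The spread behind the main test and interval came from all 12 arrays, those of the choice included. Only the fit to the 6 arrays compared left out every array of the choice.

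**Figure D1:**
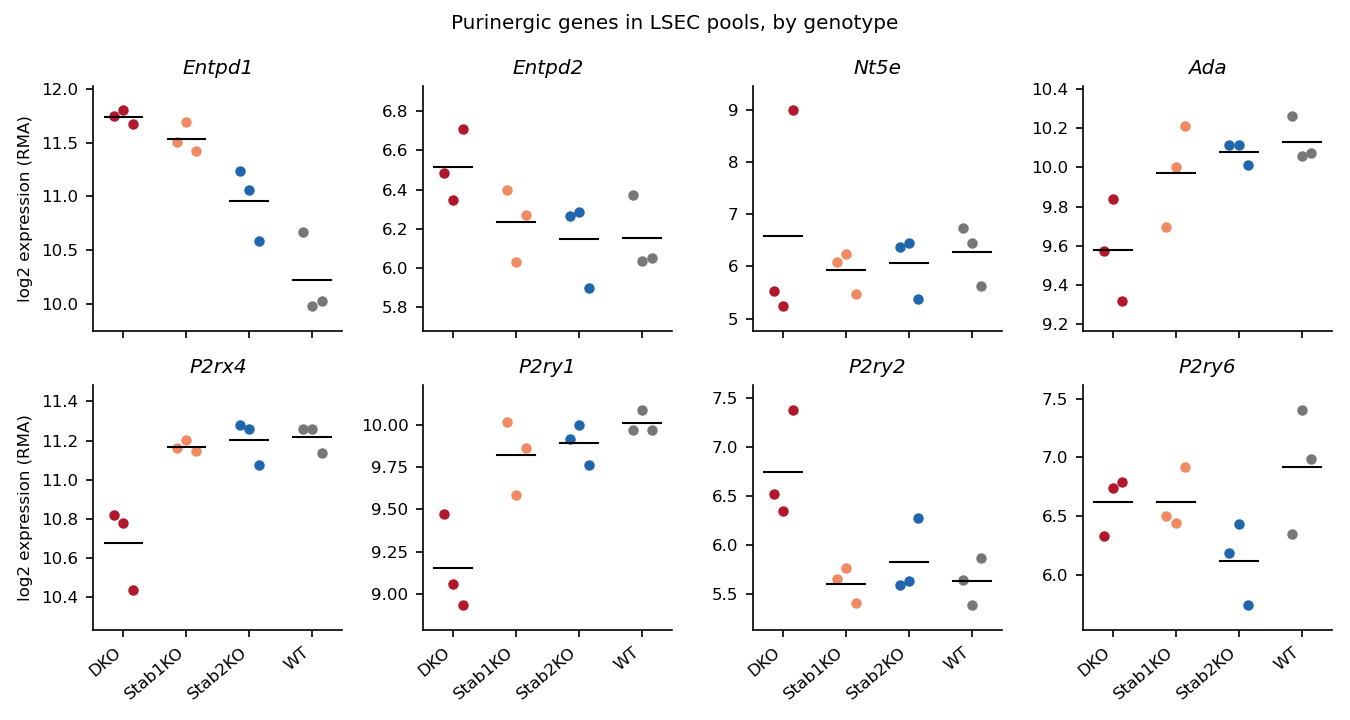
Log2 expression of the 8 measured members (vertical axis, separate for each gene) in the 3 pools of each genotype (points), with the group mean as a line. Entpd1 runs from 11.80 at most in DKO to 9.97 at least in WT, P2rx4 and P2ry1 are lowest in the DKO pools, and DKO replicate 3 alone holds Nt5e at 8.99.

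Marker genes of other cells moved with Entpd1, and their part in its values was not tested. The 8 large-vessel endothelial genes averaged between 9.73 and 9.82 in the DKO arrays, 9.11 and 9.44 in Stab1KO, 9.15 and 9.47 in Stab2KO, and 8.47 and 9.26 in WT. Within WT, replicate 2 had the lowest value of both Entpd1 and this list, and replicate 1 the highest of both. The list's first gene, Vwf, which encodes von Willebrand factor, measured 10.80 to 11.41 in DKO, 10.50 to 11.06 in Stab1KO, 10.12 to 10.88 in Stab2KO and 9.17 to 10.89 in WT. Of the 8 genes 4 rose against WT in DKO, 1 in Stab2KO and 0 in Stab1KO, where 0.754%, 0.0833% and 0.0292% of all genes rose. Within the list, Thbd had its lowest mean in DKO (10.25, against 10.69 in WT). Gja5 had its highest in Stab2KO (7.33, against 6.76 in Stab1KO). The 12 stellate cell genes ran opposite to Entpd1, averaging between 6.46 and 6.75 in DKO, 6.48 and 6.77 in Stab1KO, and 6.87 and 7.04 in Stab2KO, against 8.01 and 8.51 in WT. Of these, 6 fell in each of the 3 comparisons against WT. Of all genes 1.05% fell in DKO, 0.279% in Stab1KO and 0.212% in Stab2KO. Their defining genes Lrat, Reln and Colec11 measured 8.37 or above in every WT array and 7.60 or below in every other array. CD39 is also known on B cells. The 6 measured B cell genes averaged 5.54 to 5.83 in DKO, 5.37 to 5.77 in Stab1KO, 6.13 to 6.41 in Stab2KO and 5.57 to 6.26 in WT, and 1 was lower in DKO than in Stab2KO. Over all genes 2.12% were called lower in that comparison.

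The genes whose pattern over the 12 arrays was most like that of Entpd1 were sought among 12984 genes above the 40th percentile of mean signal. The 5 most alike were Bmp4, a bone morphogenetic protein gene (Pearson r = 0.937), the endothelin-1 gene Edn1 (r = 0.921), the P-selectin gene Selp (r = 0.908), the heparan sulfate sulfotransferase gene Hs3st1 (r = 0.905) and Rnf43 (r = 0.892), which encodes a ubiquitin ligase that restrains Wnt receptors. Edn1 and Selp belong to the large-vessel list above. The 3 most opposite were Cygb, the cytoglobin gene of stellate cells (r = -0.963), Angptl6 (r = -0.959) and Adamtsl2 (r = -0.924). Spearman's rho had the same sign for each of the 8 genes and was 0.825 to 0.958 for the alike genes and -0.972 to -0.916 for the opposite ones. These are descriptions over 12 arrays that share genotype, pool and normalization, picked as extremes, and they carry no p. After the group means were removed, which leaves part of the same values that picked these genes, r was 0.738 to 0.839 for the alike genes, and -0.904, -0.727 and -0.664 for Cygb, Angptl6 and Adamtsl2. Bmp4 measured 11.50, 11.21 and 10.67 in DKO, 10.94, 11.13 and 10.30 in Stab1KO, and 10.48, 10.29 and 9.92 in Stab2KO, against 10.36, 8.90 and 9.32 in WT. Cygb measured 7.26, 7.14 and 7.33 in DKO, 7.41, 7.11 and 7.53 in Stab1KO, and 7.72, 7.74 and 7.99 in Stab2KO, against 8.77, 9.49 and 9.26 in WT. As with Entpd1, WT replicate 1 was the WT array nearest the knockouts for both.

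**Figure D2:**
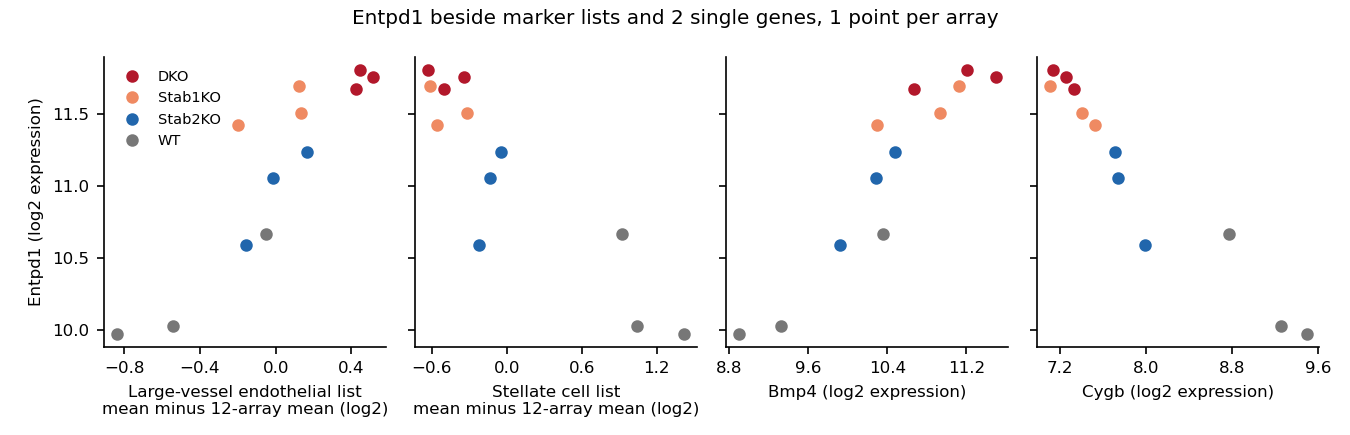
Log2 expression of Entpd1 (vertical axis) against the mean of the 8 large-vessel endothelial genes, the mean of the 12 stellate cell genes (both relative to their 12-array means, log2), Bmp4 and Cygb (log2 expression), with 1 point per array coloured by genotype. WT replicate 2 has the lowest Entpd1 (9.97), the lowest large-vessel mean and the highest stellate mean.

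Genes that neighbour Entpd1 on chromosome 19 were set beside it. Of the closest genes, Tctn3 and Aldh18a1 differed most in Stab1KO against WT, by 0.30 ± 0.11 and -0.29 ± 0.19. They did not pass the test (adjusted p of about 1 for each). Cc2d2b, Gm27042, Ccnj and E030044B06Rik, all within 0.13 Mb, differed by 0.02, -0.19, 0.27 and -0.20 and did not pass either. Of 228 other genes within 10 Mb, 4 were called in Stab1KO against WT, or 1.75%, where 0.308% of all genes were called. Morn4, 1.33 Mb away, rose by 1.10 ± 0.13 (adjusted p = 0.0038). The other 3 lie 5.62 to 5.83 Mb away and fell: the transporter-like gene Mfsd13a by 1.13 ± 0.14 (adjusted p = 0.0054), Arl3, a small GTPase gene of cilia, by 0.79 ± 0.13 (adjusted p = 0.029), and the mitochondrial sideroflexin gene Sfxn2 by 1.004 ± 0.13 (adjusted p = 0.0060). In DKO against Stab2KO, 23 of the 228 were called, or 10.1%, where 3.42% of all genes were. Morn4, Mfsd13a and Arl3 passed again, at 0.77 ± 0.13, -0.94 ± 0.14 and -0.57 ± 0.13 (adjusted p = 0.019, 0.013 and 0.042). Sfxn2 differed by -0.49 ± 0.13 there and did not pass (adjusted p = 0.063).

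Morn4 split by the Stab1 genotype. It measured 6.04, 6.14 and 5.74 in DKO and 6.40, 6.40 and 6.26 in Stab1KO, against 5.29, 5.13 and 5.19 in Stab2KO and 5.47, 5.01 and 5.29 in WT. Every array that lacks Stab1 lay above every array that carries it. Mfsd13a was the mirror image, between 6.28 and 7.03 in the 6 arrays lacking Stab1, against 7.61 to 7.97 in the 6 carrying it. Entpd1 had the same split, with 11.42 or above against 11.24 or below, and its mean was also higher in Stab2KO than in WT. Entpd1 was chosen because Stab1KO lay above WT, so that part of its split was fixed beforehand. Morn4 and Mfsd13a are shown because they were called. In DKO against Stab2KO, which the choice did not use, Entpd1 did not pass (limma adjusted p = 0.056). A chromosome 19 segment that differs in the Stab1-deficient mice and the loss of Stab1 itself cannot be told apart in these arrays, for Entpd1 as for its neighbours. Within 5 Mb of Entpd1 the counts were 1 of 140 genes (0.714%) in Stab1KO against WT and 13 of 140 (9.29%) in DKO against Stab2KO. Of all genes 0.308% and 3.42% were called in these comparisons. The 1 gene in Stab1KO against WT was Morn4, as the other called genes lay outside 5 Mb.

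**Figure D3:**
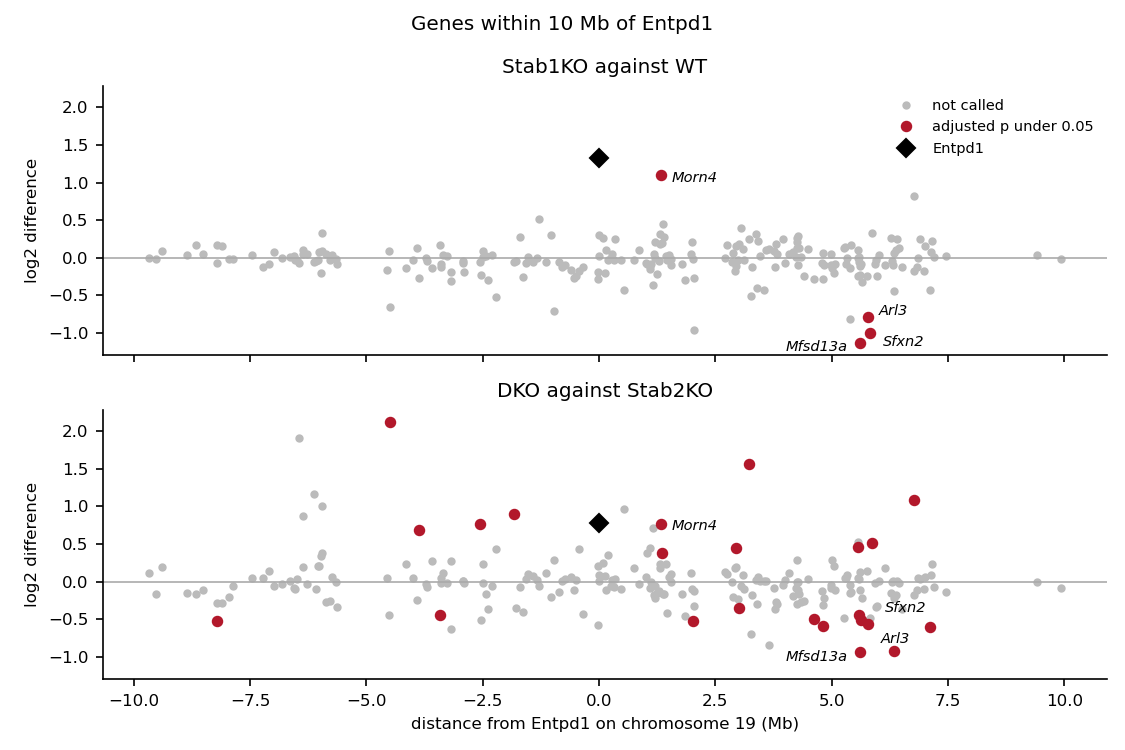
Log2 difference (vertical axis) of the genes within 10 Mb of Entpd1 against their distance from it in Mb (horizontal axis), in Stab1KO against WT and in DKO against Stab2KO. Red points are called genes, grey points are not called and the diamond is Entpd1. Morn4 lies above 0 and Mfsd13a, Arl3 and Sfxn2 lie below 0 in both panels.

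The next member, Entpd2, encodes NTPDase2, which prefers ATP to ADP and in liver is known from portal fibroblasts. It measured 6.48, 6.35 and 6.71 in DKO, 6.40, 6.03 and 6.27 in Stab1KO, and 6.27, 6.28 and 5.90 in Stab2KO, against 6.37, 6.04 and 6.05 in WT. The DKO arrays lay above the Stab2KO arrays and overlapped the others, and no difference passed the test. It was higher by 0.36 ± 0.15 in DKO against WT (adjusted p = 0.26) and by 0.36 ± 0.15 against Stab2KO (adjusted p = 0.21). The 6 portal fibroblast genes averaged 6.24 to 6.41 in DKO, 5.81 to 6.26 in Stab1KO and 6.00 to 6.31 in Stab2KO, against 5.91 to 6.04 in WT.

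Nt5e, the gene of CD73, showed no shared direction in DKO. It measured 5.54, 5.23 and 8.99 in DKO, 6.08, 6.24 and 5.47 in Stab1KO, and 6.37, 6.45 and 5.37 in Stab2KO, against 6.73, 6.45 and 5.63 in WT. The single high value was DKO replicate 3, and the other DKO arrays were the lowest and the fourth lowest of all 12. Its difference in DKO against WT was 0.32 ± 0.81 with that array and -0.88 ± 0.38 without it, and neither passed (adjusted p = 0.90 and 0.34). In DKO replicate 3 the neutrophil genes Ly6g and S100a8 measured 11.65 and 12.76, against at most 4.05 and 8.14 in any other array. Other purine genes, picked after their values were seen, were high in that array too. Acpp, an ecto-phosphatase gene that can also form adenosine, measured 8.99 there and at most 4.44 elsewhere, the NAD-consuming ecto-enzyme gene Bst1 10.35 and at most 6.50, and the ADP receptor gene P2ry13 8.55 and at most 6.44. The part of neutrophils in these values was not tested.

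Ada ran lower in DKO without passing the test. It measured 9.57, 9.84 and 9.32 in DKO, 9.70, 10.002 and 10.21 in Stab1KO, and 10.11, 10.12 and 10.01 in Stab2KO, against 10.26, 10.06 and 10.07 in WT. All 3 DKO arrays lay below the Stab2KO and WT arrays and overlapped those of Stab1KO. The difference was -0.55 ± 0.15 against WT (adjusted p = 0.094) and -0.50 ± 0.15 against Stab2KO (adjusted p = 0.091), a fold of 0.68 and 0.71.

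Among the receptors, P2rx4 and P2ry1 fell when both stabilins were missing. P2rx4 encodes an ATP-gated cation channel that endothelium uses in its response to flow. It measured 10.82, 10.78 and 10.44 in DKO, 11.16, 11.20 and 11.14 in Stab1KO, and 11.28, 11.26 and 11.07 in Stab2KO, against 11.26, 11.26 and 11.14 in WT. The 9 other arrays lay between 11.07 and 11.28, and all 3 DKO arrays lay below them. The fall was 0.54 ± 0.10 against WT (adjusted p = 0.031) and 0.53 ± 0.10 against Stab2KO (adjusted p = 0.029), a fold of 0.69 each, while the difference from Stab1KO, -0.49 ± 0.10, did not pass (adjusted p = 0.058). In the single knockouts P2rx4 differed from WT by -0.05 ± 0.10 in Stab1KO and -0.01 ± 0.10 in Stab2KO, with 95% intervals of -0.28 to 0.18 and -0.24 to 0.21.

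P2ry1 encodes the Gq-coupled receptor for ADP. It measured 9.48, 9.06 and 8.94 in DKO, 10.02, 9.59 and 9.86 in Stab1KO, and 9.92, 9.996 and 9.76 in Stab2KO, against 9.96, 10.09 and 9.97 in WT. The DKO arrays again lay below all 9 others. It fell by 0.85 ± 0.15 against WT (adjusted p = 0.019), a fold of 0.56, and by 0.73 ± 0.15 against Stab2KO (adjusted p = 0.030). The difference from Stab1KO was -0.66 ± 0.15 (adjusted p = 0.066). The single knockouts differed from WT by -0.19 ± 0.15 in Stab1KO and -0.11 ± 0.15 in Stab2KO. The departure from additivity, which compares the DKO with the sum of the single effects, was -0.55 ± 0.21 for P2ry1 and -0.48 ± 0.15 for P2rx4, and passed for neither (adjusted p = 0.30 and 0.21).

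These calls rested on few arrays. Against WT both were lost without any one WT array (adjusted p = 0.096, 0.12 and 0.071 for P2rx4 and 0.052, 0.088 and 0.065 for P2ry1, without WT replicates 1, 2 and 3), P2rx4 also without Stab2KO replicate 2 (0.051) and P2ry1 without DKO replicate 2 (0.051). Against Stab2KO both were lost without Stab2KO replicate 1 (0.10 each) or replicate 2 (0.11 each), and P2ry1 without DKO replicate 2 (0.062) or replicate 3 (0.050). Without DKO replicate 3, P2rx4 differed from WT by -0.42 and P2ry1 by -0.74, and both passed. Across the 12 settings that left out 1 array, P2rx4 differed by -0.61 to -0.42 from WT and -0.60 to -0.41 from Stab2KO. P2ry1 differed by -1.01 to -0.74 and -0.89 to -0.62. Calls over all genes fell from 432 to 233, 125 and 133 against WT without WT replicates 1, 2 and 3. Against Stab2KO they fell from 822 to 81 and 45 without Stab2KO replicates 1 and 2.

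P2ry2 encodes the receptor for ATP and UTP, whose best known endothelial effects are vasodilation and leukocyte adhesion. It measured 6.52, 6.35 and 7.39 in DKO, 5.65, 5.76 and 5.40 in Stab1KO, and 5.59, 5.63 and 6.28 in Stab2KO, against 5.64, 5.38 and 5.86 in WT. The DKO arrays were above all 9 others, with replicate 3 the highest. The difference was 1.12 ± 0.27 against WT, a fold of 2.18 (adjusted p = 0.064), 1.15 ± 0.27 against Stab1KO (adjusted p = 0.076) and 0.92 ± 0.27 against Stab2KO (adjusted p = 0.089), and none passed. Against WT it was called with the replicate block, the low-signal filter, the trend and robust options or array weights (adjusted p = 0.047, 0.046, 0.047 and 0.025) and without Stab2KO replicate 3 (0.049). Without DKO replicate 3 the difference was 0.81 (adjusted p = 0.096).

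P2ry6, the gene of the UDP receptor, had its lowest mean in Stab2KO. It measured 6.33, 6.74 and 6.79 in DKO, 6.50, 6.44 and 6.92 in Stab1KO, and 6.18, 6.43 and 5.74 in Stab2KO, against 6.35, 7.41 and 6.99 in WT. The difference of Stab2KO from WT was -0.80 ± 0.27 and did not pass (adjusted p = 0.46). The groups overlapped, since WT replicate 1 lay below Stab2KO replicate 2. The 10 Kupffer cell genes averaged 7.17 to 7.58 in Stab2KO and 7.51 to 9.65 in WT, with replicate 1 the lowest and replicate 2 the highest WT array, the same ends as for P2ry6. Its part in the P2ry6 values was not tested.

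Other cell programmes moved with the DKO arrays in which P2rx4, P2ry1, Ada and P2ry2 differed. The 12 immediate early genes, which respond to cell isolation, averaged 11.80 to 12.26 in DKO, 10.50 to 10.91 in Stab1KO and 10.79 to 11.67 in Stab2KO, against 10.65 to 11.24 in WT, and 4 rose in DKO against WT. The 6 measured bile duct genes averaged 6.99 to 7.49 in DKO, 5.76 to 6.34 in Stab1KO and 6.01 to 6.42 in Stab2KO, against 5.80 to 6.36 in WT, and 4 rose. Over all genes 0.754% rose in DKO against WT. The 10 LSEC marker genes averaged 12.96 to 13.15 in DKO, 13.19 to 13.24 in Stab1KO and 13.16 to 13.18 in Stab2KO, against 13.20 to 13.24 in WT, and 0 were called (limma). Their part in the receptor values was not tested.

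Entpd1 is left out of the counts of calls that follow, which cover the other 7 measured members. In DKO against WT 2 were called, P2rx4 and P2ry1, both lower, where 1.80% of all genes were called, 0.754% higher and 1.05% lower. In DKO against Stab2KO the same 2 were called, both lower, where 3.42% of all genes were called, 1.30% higher and 2.12% lower. In Stab1KO against WT 0 of the 7 were called by limma and 0 had an unadjusted p under 0.05, where 0.308% of all genes were called and 3.91% had such a p. In Stab2KO against WT 0 were called by limma and 1 had an unadjusted p under 0.05, where 0.296% of all genes were called (0.0833% higher) and 7.62% had such a p. In DKO against Stab1KO 0 were called by limma and 4 had an unadjusted p under 0.05, where 0.945% of all genes were called (0.546% higher and 0.400% lower) and 16.2% had such a p. In Stab1KO against Stab2KO 0 were called by limma and 0 had an unadjusted p under 0.05, where 0.108% of all genes were called and 7.07% had such a p. The 3 arrays of each group did not overlap for 5 of 8 members, Entpd1 included, in DKO against WT and for 6 of 8 in DKO against Stab2KO, where 24.0% and 21.2% of all genes did not. They did not overlap for 3 members in DKO against Stab1KO and 0 in Stab2KO against WT, where 19.7% and 15.7% of all genes did not. The departure from additivity passed for 0 members by limma, with 3 at an unadjusted p under 0.05, where 0.0333% of all genes passed above 0 and 0.0167% below 0, and 12.5% had an unadjusted p under 0.05. The median difference of the 8 members, Entpd1 included, was 0.01 in DKO against WT and 0.43 in DKO against Stab2KO. Over all genes it was -0.02 and -0.03. Of the 8, 4 lay above and 4 below 0 against WT, and 5 above and 3 below against Stab2KO. Without Entpd1 the median of the other 7 was the P2ry6 value, -0.29, against WT and the Entpd2 value, 0.36, against Stab2KO. With 8 members chosen in view of earlier results, these counts are descriptions.

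**Figure D4:**
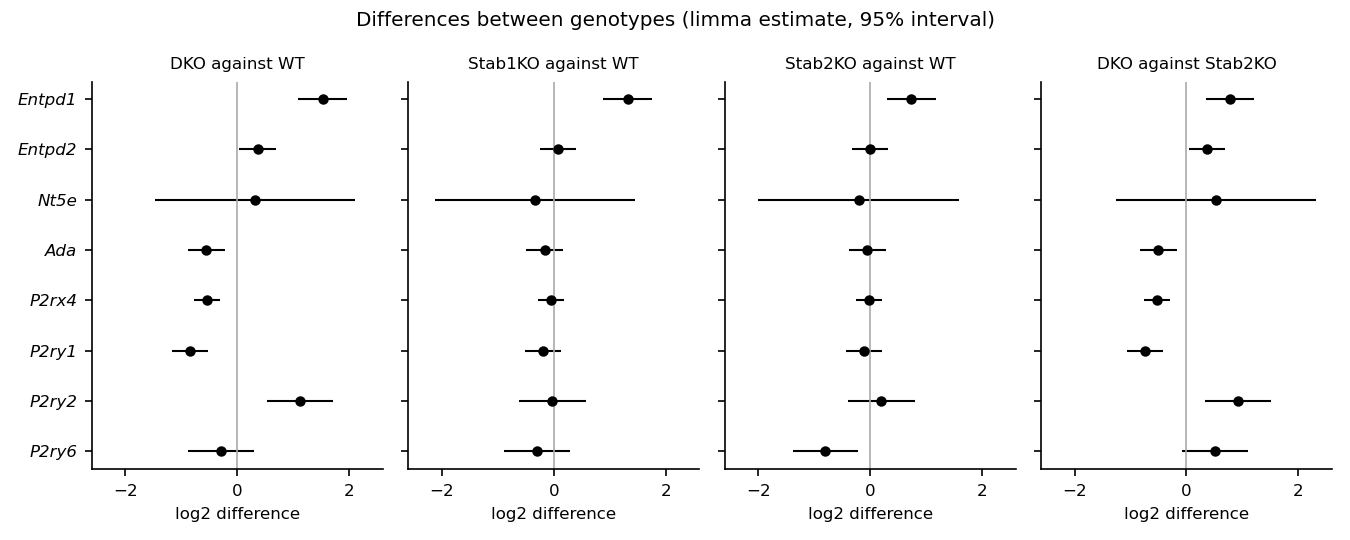
Log2 difference (horizontal axis) of each measured member in 4 comparisons, with the 95% interval of the limma fit before adjustment. Entpd1 lies above 0 in all 4 panels. Its differences and intervals against WT share the WT arrays for which it was chosen and are a description. P2rx4 and P2ry1 lie below 0 in the 2 DKO panels with intervals that leave out 0. The Nt5e intervals are the widest of the 8 genes.

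The wider purinergic system was described from 6 lists with 56 genes, of which 49 were measured, members included. Leaving out Entpd1, 48 remained. In DKO against WT 2 rose and 3 fell, where 1.80% of all genes were called, and the median difference of the 49 was 0.01. In DKO against Stab2KO 1 rose and 2 fell, where 3.42% of all genes were called, and in DKO against Stab1KO 1 rose, where 0.945% were. In DKO against WT, Stab2KO and Stab1KO, 14, 14 and 11 of the 48 had an unadjusted p under 0.05. Of all genes 16.7%, 18.9% and 16.2% had such a p there. In Stab1KO against WT, Stab2KO against WT and Stab1KO against Stab2KO 0 of the 48 were called by limma, with 3, 4 and 1 at an unadjusted p under 0.05, where 3.91%, 7.62% and 7.07% of all genes had such a p. Outside the members, 41 genes were measured and 3 were called in DKO against WT.

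Enpp3, an ecto-pyrophosphatase and phosphodiesterase gene whose product cleaves extracellular ATP to AMP, rose in DKO against each of the other genotypes. It measured 7.55, 6.76 and 7.43 in DKO, 5.74, 5.50 and 5.38 in Stab1KO, and 5.67, 5.88 and 4.99 in Stab2KO, against 5.99, 5.28 and 5.84 in WT. Every DKO array lay above all 9 others. The 6 measured bile duct genes also averaged highest in DKO, 6.99 to 7.49 against at most 6.42 elsewhere. DKO replicate 2 was the lowest DKO array for both. The 12 immediate early genes averaged highest in DKO too, with replicate 2 the highest DKO array. The part of these programmes in the Enpp3 values was not tested. The rise of Enpp3 was 1.54 ± 0.27 against WT, 1.71 ± 0.27 against Stab1KO and 1.74 ± 0.27 against Stab2KO (adjusted p = 0.022, 0.024 and 0.015). It was lost against WT without DKO replicate 1 or WT replicate 2 or 3 (adjusted p = 0.060, 0.091 and 0.065). Against Stab1KO it was lost without DKO replicate 1 or Stab1KO replicate 2 or 3 (0.061, 0.11 and 0.091), and against Stab2KO without Stab2KO replicate 1 (0.054).

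Adk, the kinase gene that returns adenosine to AMP inside cells, rose by 0.51 ± 0.10 in DKO against WT (adjusted p = 0.030). It measured 8.93, 8.72 and 8.88 in DKO, 8.67, 8.60 and 8.50 in Stab1KO, and 8.58, 8.79 and 8.46 in Stab2KO, against 8.30, 8.29 and 8.41 in WT. All 9 knockout arrays lay above the 3 WT arrays. The differences of the single knockouts from WT, 0.26 ± 0.10 in Stab1KO and 0.28 ± 0.10 in Stab2KO, did not pass (adjusted p of about 1 and 0.50). The call in DKO was lost without DKO replicate 1 or 3 or any one WT array (adjusted p between 0.059 and 0.12).

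P2ry14, the gene of the UDP-glucose receptor, fell by 0.46 ± 0.10 in DKO against WT (adjusted p = 0.042). It differed by -0.43 ± 0.10 in Stab1KO (adjusted p = 0.25) and -0.50 ± 0.10 in Stab2KO (adjusted p = 0.079) without passing. It measured 3.93, 3.92 and 4.08 in DKO, 3.91, 3.96 and 4.16 in Stab1KO, and 4.004, 3.99 and 3.82 in Stab2KO, against 4.32, 4.54 and 4.43 in WT. All of these values lie below 5.11, the median of DKO replicate 2, so they were not shown to exceed background. The call was lost in 9 of the 12 settings that left out 1 array (adjusted p up to 0.17).

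In the lists with no called gene outside the members, the largest differences from WT were small or uncertain. P2rx7, a channel opened by high ATP, measured 9.13, 9.32 and 8.74 in DKO, 9.63, 9.45 and 9.40 in Stab1KO, and 9.61, 9.64 and 9.69 in Stab2KO, against 9.83, 9.58 and 9.45 in WT. The DKO arrays lay below all 9 others, and the difference of -0.55 ± 0.14 against WT missed the threshold (adjusted p = 0.082), as did -0.58 ± 0.14 against Stab2KO (adjusted p = 0.052). Slc17a9, the vesicular nucleotide transporter gene, differed by -0.40 ± 0.35 in DKO (adjusted p = 0.62). Adora3, the one adenosine receptor gene measured, differed by 0.08 ± 0.09 (adjusted p = 0.73). It lay between 3.82 and 4.14 in all 12 arrays, below 5.11, the median of DKO replicate 2. It was thus not shown to exceed background.

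**Figure D5:**
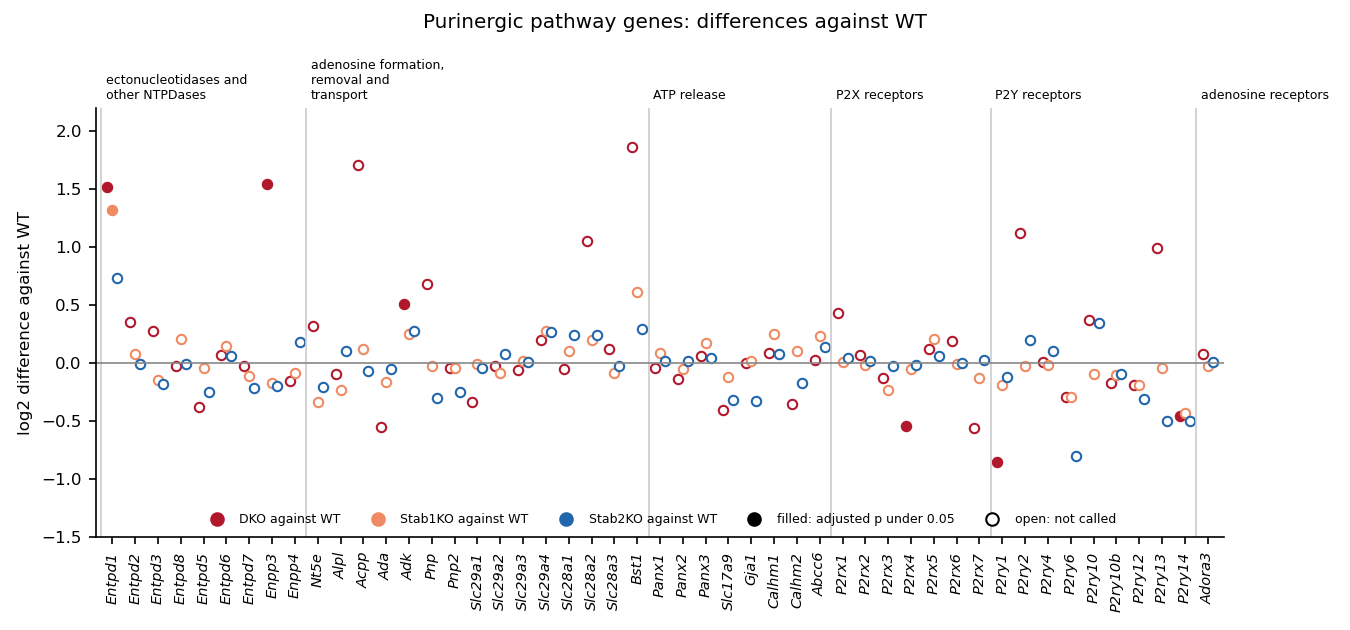
Log2 difference against WT (vertical axis) of the 49 measured purinergic genes, grouped by list, for DKO, Stab1KO and Stab2KO. Filled points are called (limma adjusted p under 0.05) and open points are not. Filled points are Entpd1, Enpp3 and Adk above 0 and P2rx4, P2ry1 and P2ry14 below 0 in DKO, and Entpd1 in Stab1KO, where its filled point shows the comparison it was chosen on and is a description.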

How the data were processed

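Expression was measured on 12 arrays, 3 for each of 4 genotypes. The deposited values are log2 expression values, and the submitters' processing notes name RMA (background correction, quantile normalization and a summary per probe set). For its version, the genome build and the probe mapping, nothing is stated there. Of 24973 rows, 24015 carried 1 symbol in the platform annotation, 0 several and 958 no name. For a symbol on more than 1 row, the row of highest mean was used, giving 24011 genes.

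limma 3.58.1 in R 4.3.3 fitted 4 group means over the 12 arrays, with 8 residual degrees of freedom, and the fit was tested on simulated data. P-values measure the spread between pools, and the number of arrays limits the precision. No detection calls or scan batches were used. The members, the 6 pathway lists and the 13 marker lists were chosen with earlier results of these data known. Named genes were the members, called pathway genes (or the 1 with the largest difference from WT in a list with none), the 5 genes most like and 3 most unlike Entpd1, called genes within 10 Mb of it and the genes closest to it. The listed symbol Acp3 was matched to Acpp through RefSeq. Alternatives were a replicate block, a filter above the 40th percentile of means, trend and robust options, array weights, renormalization, every row, the 6 compared arrays alone, a 5 Mb window and each array left out. Lists not given with a result were T and NK cell, platelet, smooth muscle and hepatocyte genes, with 0 called in each comparison.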

Additional observations from a re-analysis of the deposited data

How the results depend on the processing

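The 3 replicate numbers did not pair the samples: same-numbered arrays of different genotypes had deviations that correlated at -0.064 to 0.291, above 0.1 in 4 of 18 pairs, so the block is reported only as an alternative. With the replicate block the Entpd1 difference in DKO against Stab2KO passed (0.78, adjusted p = 0.043), as it did with the low-signal filter (0.78) and array weights (0.72), and without WT replicate 1 among values of 0.60 to 0.92 when each array was left out. It did not pass in the other 15 of its 19 alternatives. Members called with the block numbered 1 in DKO against Stab1KO, and pathway genes 2 there and 5 in DKO against Stab2KO. Of all 24011 genes, 270 and 717 were called in these comparisons with the block, against 227 and 822 without it.

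The counts here include Entpd1. With only the 6 arrays compared, 0 members and 0 pathway genes were called in Stab1KO against WT. In DKO against WT 1 and 1 were called, in DKO against Stab2KO 0 and 0, and in DKO against Stab1KO 0 pathway genes. Over all 24011 genes 50, 97, 4 and 18 were called in these 4 comparisons, against 74, 432, 822 and 227 in the main fit. With array weights, 2 members and 3 pathway genes were called in DKO against Stab1KO, and 4 and 7 in DKO against Stab2KO. In Stab2KO against WT 1 pathway gene was called. Over all genes these weights called 466, 1789 and 148 in the 3 comparisons, where the main fit called 227, 822 and 71. With trend and robust options, 2 members and 3 pathway genes were called in DKO against Stab1KO, where 259 of all genes were called. With the low-signal filter, 5 pathway genes were called in DKO against Stab2KO, where 973 of the 14406 genes kept were called. The 5 Mb window held 1 called gene instead of 4 in Stab1KO against WT and 13 instead of 23 in DKO against Stab2KO. These are 0.714% instead of 1.75% and 9.29% instead of 10.1% of the window, beside 0.308% and 3.42% of all genes.

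With each array left out, members called, Entpd1 included, ranged from 0 to 1 in Stab1KO against WT (Entpd1, which was chosen on it), 1 to 4 in DKO against WT, 0 to 1 in DKO against Stab1KO and 0 to 3 in DKO against Stab2KO. Pathway genes called ranged from 0 to 1, 1 to 7, 0 to 1 and 0 to 4 in the same 4 comparisons. Calls over all genes ranged from 46 to 81, 125 to 510, 22 to 357 and 45 to 854 there. Nt5e changed sign without DKO replicate 3, to -0.88, -0.55 and -0.68 against WT, Stab1KO and Stab2KO, against 0.99, 1.33 and 1.20 without DKO replicate 2, and with array weights, to -0.57, -0.29 and -0.59. The causes of these changes were not tested, beyond the smaller number of arrays. Entpd2, Nt5e, P2ry2 and P2ry6 lay near the median of DKO replicate 2, where an unknown share of the signal is background.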
